A study of Mus musculus with 8 samples.

Results

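Broad open sites are intervals wider than 800 bp in a table of accessible chromatin sites from mouse regulatory T (Treg) cells. Site width was taken as the end coordinate minus the start coordinate, and 2578 of 79758 sites passed, or 3.23% of the sites and 19.3% of the base pairs in the table. The rule used width alone and no difference between groups. The assay was ATAC-seq, which inserts sequencing adapters into exposed DNA with a transposase, so that the count at a site reflects how often the enzyme reached it. The cells were sorted from spleen and lymph nodes of mixed bone marrow chimeras, mice whose blood cells derive from marrow of more than 1 donor. The 8 libraries form 4 groups of 2: Pggt1b-deficient eTreg cells, wild-type (WT) eTreg cells, Pggt1b-deficient cTreg cells and WT cTreg cells. The sources used here do not give the age of the mice, the Cre or other means of deletion, or the surface markers of the sort. They also do not say whether WT and Pggt1b-deficient cells shared hosts, or whether each library stands for its own chimera. The p-values therefore measure the spread between libraries, which may be technical.

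Treg cells restrain immune responses. Central Treg (cTreg) cells are the resting population that recirculates through lymphoid organs, and effector Treg (eTreg) cells are the activated population that follows antigen stimulation. Pggt1b is the gene for the catalytic beta subunit of GGTase-I, a prenylation enzyme that attaches a lipid anchor to proteins. A typical open element is the nucleosome-depleted stretch where transcription factors bind. A wide open interval can be an active promoter with its flanks, or several such elements side by side that peak calling joined. The positions below are on mouse build mm9 (NCBIM37), and starts may be off by 1 base because the table does not say whether it counts from 0 or 1. No annotation of that build was used here, so no site is assigned to a gene, and neither the Pggt1b deletion nor the identity of the sorted cells was checked.

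The broad sites ranged from 801 to 4101 bp, with a median of 1022.5 bp and quartiles of 895 and 1255.75 bp. The table as a whole had a median width of 104 bp. Above 1000 bp lay 1391 of the broad sites, above 1500 bp lay 289 and above 2000 bp lay 66. The widest interval, chr4:94716453-94720554, also had the highest mean level of all broad sites, 587 CPM (counts scaled to a common library total with TMM factors, the trimmed mean of M values). The next widest were chr8:48758562-48761733 at 3171 bp, chr5:43623689-43626849 at 3160 bp, chr8:11006890-11009997 at 3107 bp, chr10:53793395-53796409 at 3014 bp and chr5:109985495-109988496 at 3001 bp. Just inside the limit, at 801 bp, chr1:157882749-157883550 lay between 71.9 and 97.3 CPM, chr10:41996114-41996915 between 83.1 and 96.6 CPM and chr11:50050085-50050886 between 31.2 and 51.1 CPM in the 8 libraries. Just outside it, at 800 bp, chr10:13684377-13685177 lay between 49.8 and 77.1 CPM, chr10:21868269-21869069 between 37.5 and 53.2 CPM and chr14:35362207-35363007 between 10.2 and 25.5 CPM.

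Broad sites held more signal per length as well as more length. Their median level was 81.2 CPM per kb with quartiles of 57.1 and 116, against 36.3 CPM per kb for the narrower sites. The median climbed through every width class, at 29.6 CPM per kb up to 100 bp, 72.6 between 600 and 800 bp and 85.6 above 1500 bp. Width and level are tied by peak calling, so this is a description. The highest level per length was 454 CPM per kb, at chr5:45840973-45841938, followed by chr9:36574964-36575902, chr8:67211896-67212786, chr1:171898973-171899821, chr3:14611006-14611829 and chr16:42874975-42876569. Every one of these 6 had higher mean CPM in Pggt1b-deficient eTreg cells than in each other group, which is part of no independent ranking, since that group entered the mean. Above 160 CPM, 27.3% of broad and 51.6% of narrower sites were higher in it than in WT eTreg cells (edgeR adjusted p under 0.05). With loess offsets in place of TMM, its difference from Pggt1b-deficient cTreg cells was no longer called at the chr9, chr8, chr3 and chr16 sites. It held at the chr5 and chr1 sites.

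**Figure D1:**
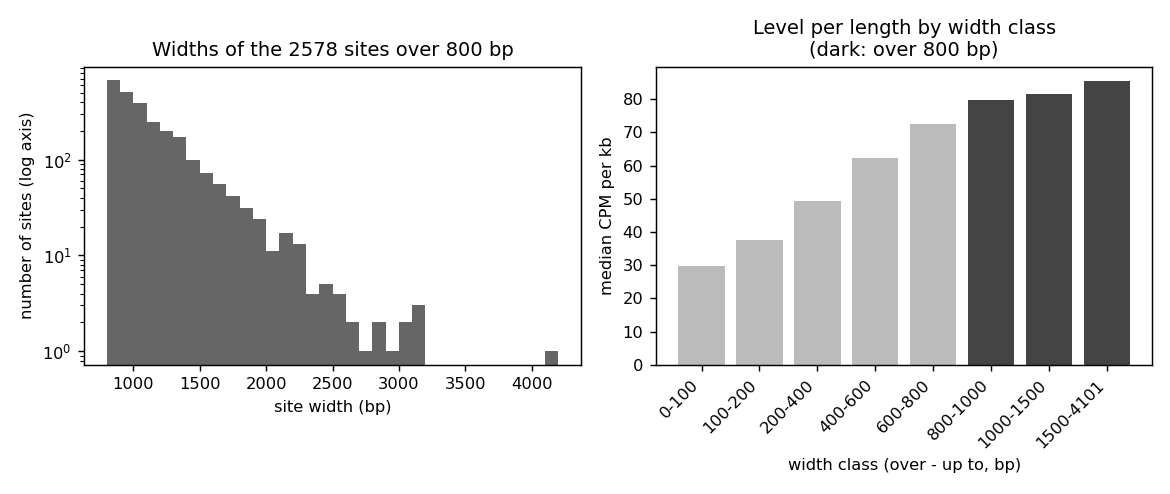
Left, number of broad sites (log axis) by width in bp in bins of 100 bp, running from 801 to 4101 bp with most sites near the lower end. Right, median CPM per kb in 8 width classes of the whole table, with classes over 800 bp in dark bars; the median climbs from 29.6 in the narrowest class to 85.6 in the widest.

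The broad sites were unevenly spread over the chromosomes. On chromosome 11, 50 of 4225 sites were broad, or 1.18%, and on chromosome 19 the share was 1.73%. The highest share was on chromosome 18, with 110 of 2675 sites or 4.11%, and 5 broad sites lay on unplaced contigs. The nearest neighbouring site was at a median gap of 305 bp, against 560 bp for narrower sites, and 932 broad sites (36.2%) had a neighbour within 200 bp, against 26.1% of narrower sites. No gap in the table was below 101 bp, so intervals lying closer than that were apparently joined before deposit. Within 50 kb the median number of other sites was 8 around broad sites and 10 around narrower ones. Broad sites were mostly apart from each other: 2404 had no other broad site within 10 kb, 81 runs held 2 and 4 runs held 3.

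Total counts per library were 2255214 and 1664702 in Pggt1b-deficient eTreg cells, 11194290 and 14974253 in WT eTreg cells, 8854687 and 7153991 in Pggt1b-deficient cTreg cells, and 12198749 and 12660311 in WT cTreg cells. The Pggt1b-deficient eTreg libraries were thus the shallowest. No broad site had a count of 0 in any library, and the lowest count was 8. The median count of a broad site was 204.5 and 146 in the Pggt1b-deficient eTreg libraries and between 612 and 1351.5 in the other 6 libraries. Over all sites these medians were 8 and 6, and between 26 and 53. The biological coefficient of variation estimated by edgeR had a median of 5.81% at broad sites and 16.4% over all tested sites. Between the libraries of a group, log2 CPM at broad sites correlated at 0.955 in Pggt1b-deficient eTreg cells and between 0.988 and 0.991 in the other 3 groups.

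Broad sites took a slightly larger share of the counts in eTreg than in cTreg libraries. The share was 28.4% and 27.9% in Pggt1b-deficient eTreg cells (mean 28.2% ± 0.378), 27.5% and 26.9% in WT eTreg cells (27.2% ± 0.423), 26.1% and 26.3% in Pggt1b-deficient cTreg cells (26.2% ± 0.209), and 25.9% and 26.4% in WT cTreg cells (26.2% ± 0.366; SD, n = 2 each). All 4 eTreg libraries lay above all 4 cTreg libraries. The difference, averaged over the genotypes, was 1.50 percentage points, and an exact permutation test within genotype gave a two-sided p of 0.0556, the smallest that the 36 relabelings allow. Within 1 genotype, 2 libraries against 2 cannot go below 0.333. Because these are bulk samples, a change in the cell mixture and a change in signal per cell cannot be told apart, here or in the comparisons that follow.

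**Figure D2:**
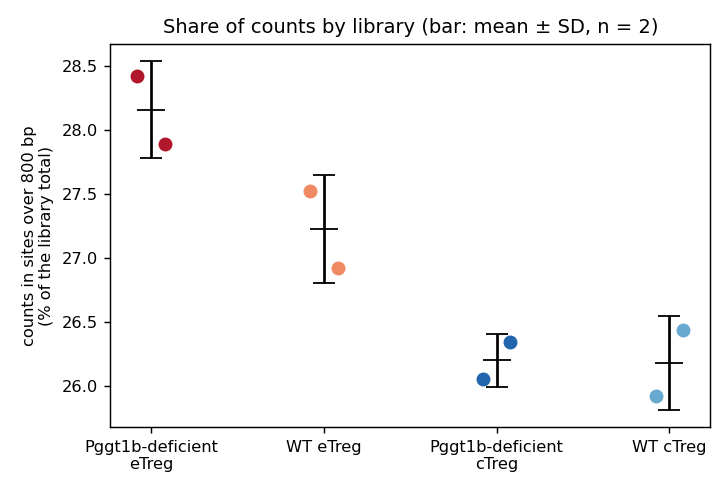
Share of each library's counts that fell in sites over 800 bp (percent, axis not from 0), points for libraries and bars for mean ± SD of 2 libraries in each of the 4 groups. The 4 eTreg libraries lie between 26.9% and 28.4% and the 4 cTreg libraries between 25.9% and 26.4%.

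Each comparison was fitted with edgeR's quasi-likelihood test over all 75352 tested sites, which include all 2578 broad ones, and a site was called at a Benjamini-Hochberg adjusted p under 0.05. Fold changes at broad sites were small and tightly measured. In WT cells the SD of the log2 fold change between subsets was 0.31 over broad sites and 1.06 over all tested sites, and the median standard error was 0.09 and 0.34. The spread narrowed with width: in the same comparison the SD was 0.36 between 800 and 1000 bp, 0.28 between 1000 and 1500 bp and 0.24 above 1500 bp.

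**Figure D3:**
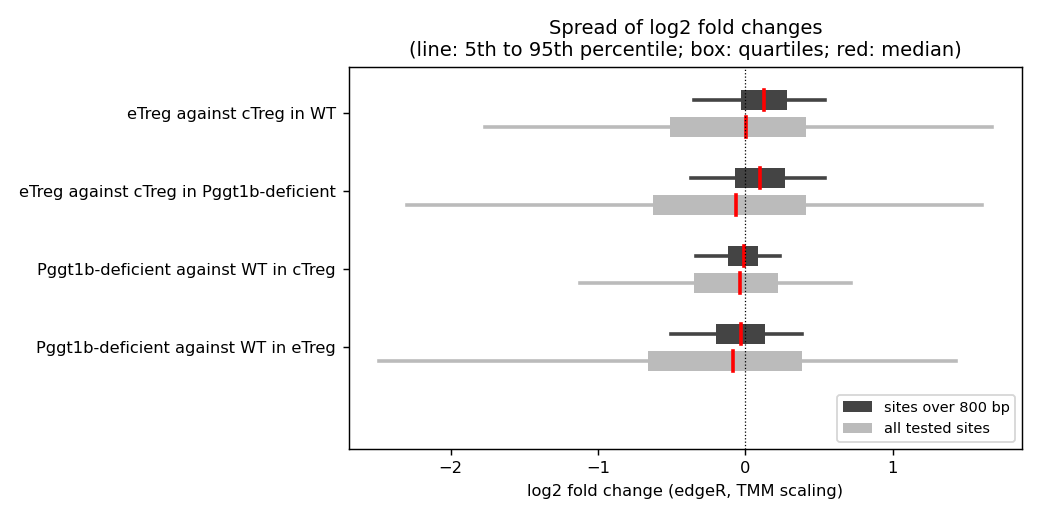
Log2 fold changes (edgeR, TMM scaling) in the 4 pairwise comparisons for broad sites (dark) and all tested sites (light), with a line from the 5th to the 95th percentile, a box for the quartiles and the median in red. For eTreg against cTreg in WT cells, the broad sites run from -0.35 to 0.54 between those percentiles, and their median is 0.13 against 0.00 for all tested sites.

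The first comparison asks how chromatin differs between WT effector and central Treg cells. More broad sites were higher than lower in WT eTreg cells: 835 were higher (32.4%) and 222 lower (8.61%). Over all tested sites, 28.7% were called, 13.8% higher and 14.9% lower. The differences were mostly modest, with medians of 0.36 (log2) among the higher and -0.40 among the lower broad sites, and 33 of the 1057 called reached 2-fold (3.12% of the broad calls, against 61.4% of all called sites; 17.6% of all tested sites were called at 2-fold or more). The excess of higher over lower depended on the scaling. With TMM factors computed from the broad sites alone, which moved their median log2 fold change by over 0.1 to near 0, 439 were higher and 495 lower; with loess offsets 648 were higher and 391 lower, with library totals 704 and 322, and with DESeq2 size factors 926 and 213. Under all 5 scalings 439 broad sites were called higher and 213 lower, and none was called in opposite directions. At matched level, between 40 and 80 CPM, 35.7% of broad sites were higher and 10.2% lower, against 22.5% and 16.8% of narrower sites. Leaving out WT cTreg replicate 1 or 2, or WT eTreg replicate 1, left 552, 659 or 627 calls.

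**Figure D4:**
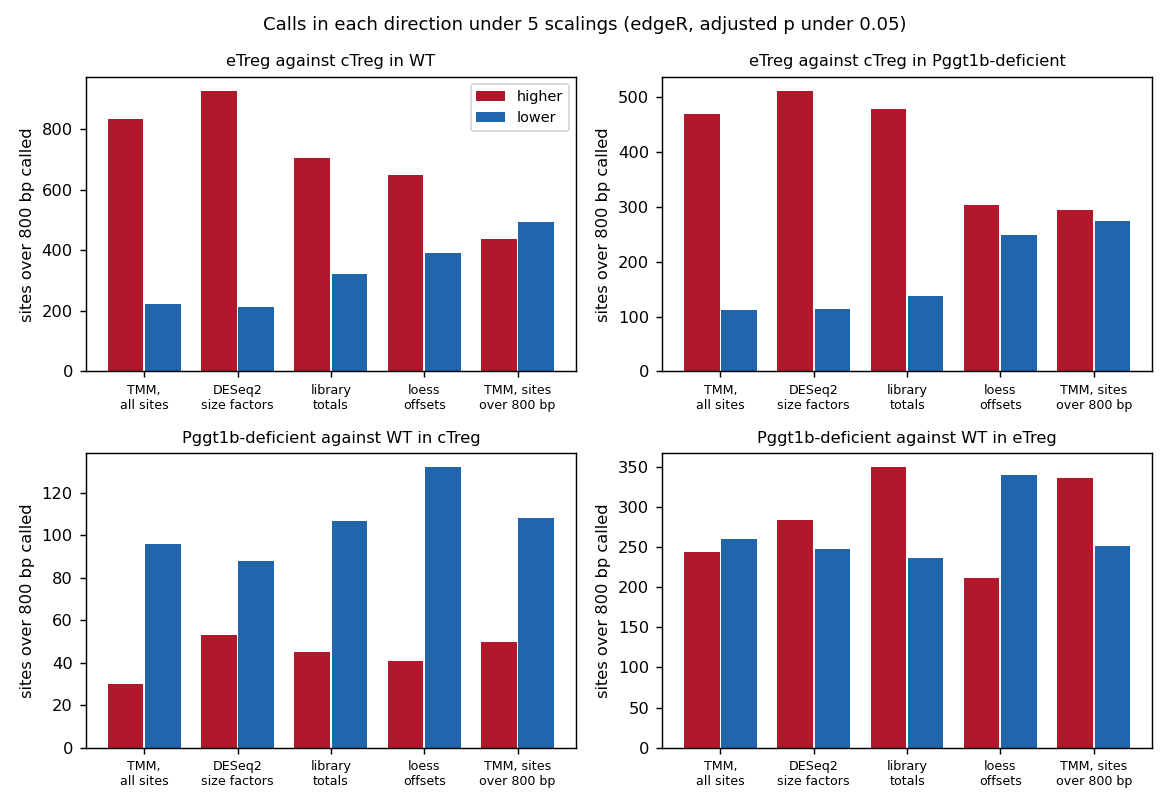
Number of broad sites called higher (red) and lower (blue) in each pairwise comparison (edgeR, adjusted p under 0.05) under 5 scalings of the libraries. For eTreg against cTreg in WT cells the split is 835 to 222 with TMM over all sites and 439 to 495 with TMM over the broad sites.

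The largest rise in WT eTreg cells was at chr7:50736303-50737104, an 801 bp site. It had 59.2 and 63.2 CPM in WT eTreg cells, against 11.3 and 11.7 CPM in WT cTreg cells. In the Pggt1b-deficient libraries it had 11.7 and 16.6 CPM in eTreg cells, against 3.36 and 6.35 CPM in cTreg cells. The WT eTreg libraries stood alone at the top, and the Pggt1b-deficient eTreg libraries lay close to the WT cTreg ones. The log2 fold change between WT subsets was 2.41 ± 0.16 (SE; edgeR adjusted p = 4.75e-15). The next largest rise, at chr8:79425520-79426606, showed a like order of groups, with 35.9 and 54.5 CPM in Pggt1b-deficient eTreg cells, 146 and 144 CPM in WT eTreg cells, 12.3 and 14.1 CPM in Pggt1b-deficient cTreg cells, and 33.3 and 26.3 CPM in WT cTreg cells. Its WT subset difference was 2.28 ± 0.11 (edgeR adjusted p = 5.04e-18). The other 4 rises in the list of 6 were chr1:182129292-182130124 at 1.77, chr18:12801723-12802592 at 1.71, chr8:41508685-41510024 at 1.45 and chr3:27609561-27610408 at 1.37 on the log2 scale. The WT groups did not overlap in CPM at any of the 6, which the choice of these sites required.

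The largest fall was at chr2:149936722-149937599, which had 8.16 and 9.23 CPM in WT eTreg cells, against 42.9 and 43.1 CPM in WT cTreg cells. Its log2 fold change was -2.30 ± 0.15 (edgeR adjusted p = 9.23e-15). In Pggt1b-deficient cells it had 14.4 and 21.3 CPM in eTreg, against 46.2 and 37.1 CPM in cTreg, so the cTreg libraries of both genotypes were high and those of eTreg low. Another broad site on chromosome 2, chr2:150132408-150133268, had 103 and 102 CPM in Pggt1b-deficient eTreg cells, 48.1 and 39 CPM in WT eTreg cells, 148 and 132 CPM in Pggt1b-deficient cTreg cells, and 125 and 127 CPM in WT cTreg cells. Here the WT eTreg libraries stood apart below all others, with a WT subset difference of -1.54 ± 0.09 (edgeR adjusted p = 7.18e-16). The other falls in the list were chr10:98579411-98580240 at -2.17, chr1:191619069-191620117 at -2.07, chr16:49790730-49791537 at -1.51 and chr4:111087412-111088230 at -1.47.

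**Figure D5:**
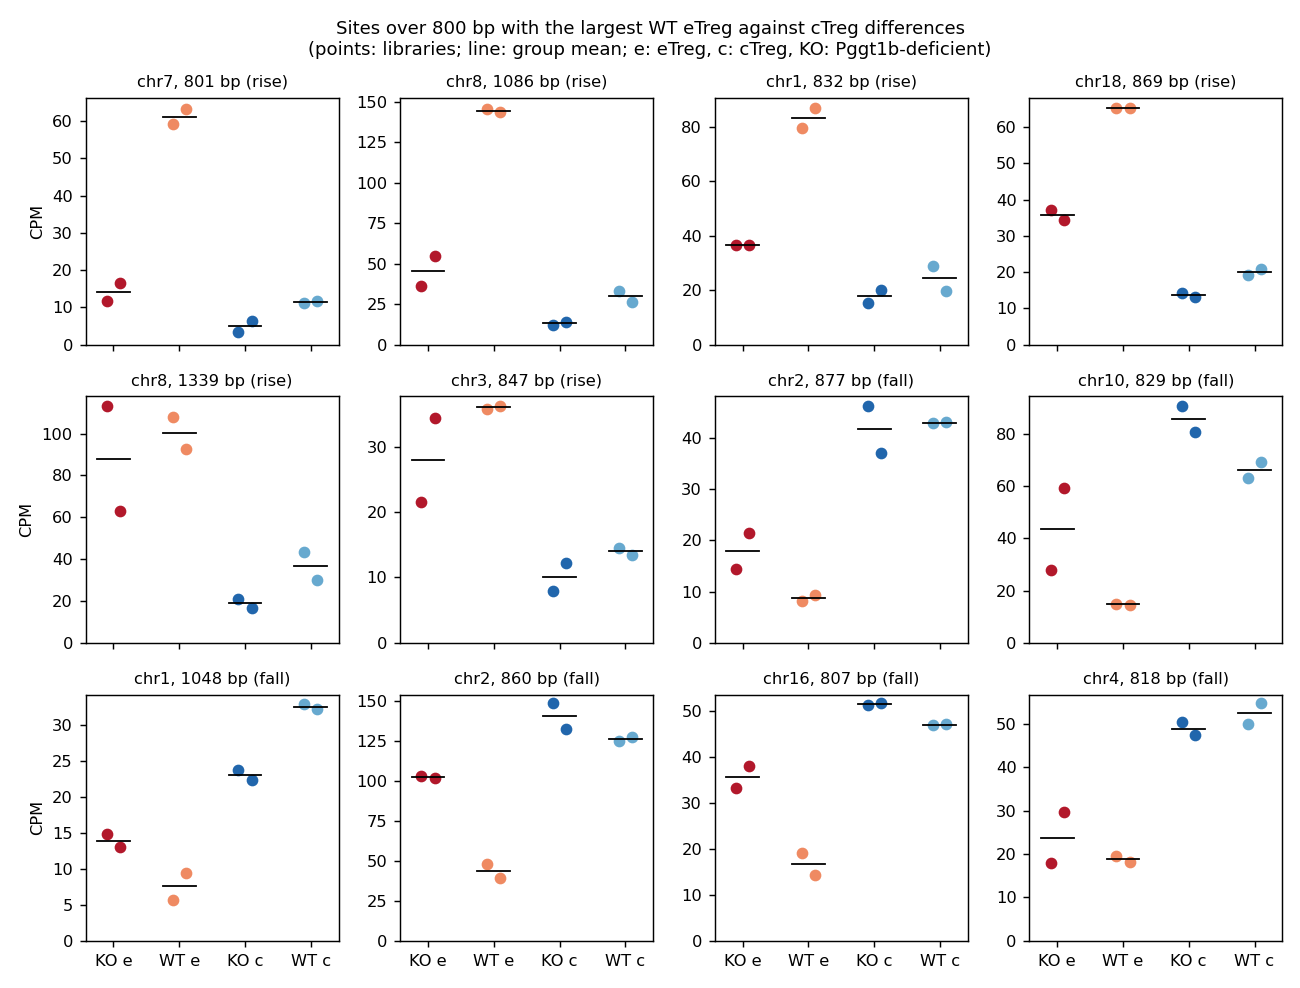
CPM in each library (points) and group mean (line) at the 12 broad sites with the largest WT subset differences, 6 rises and 6 falls, each panel from 0. Groups run Pggt1b-deficient eTreg (KO e), WT eTreg (WT e), Pggt1b-deficient cTreg (KO c) and WT cTreg (WT c); at the chr7 site the WT eTreg libraries lie at 59.2 and 63.2 CPM and all others at or under 16.6 CPM.

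Narrower sites around the broad sites that fell in WT eTreg cells had a median below 0. Their median log2 fold change was -0.48 within 1 kb (293 sites), -0.60 between 1 and 10 kb (723 sites) and -0.50 between 10 and 50 kb (1694 sites), and between 29.7% and 35.8% of them were called lower, against 14.9% of all tested sites. Around broad sites that rose, the medians were 0.23, 0.10 and 0.10 over the same distances, and between 12.8% and 16.5% of the narrower sites were called higher, a share near the 13.8% of all tested sites. Around the broad sites that rose, between 2.39% and 12.0% of the narrower sites were called lower. Around broad sites not called the medians were -0.04, -0.16 and -0.12. Of the narrower sites around these, between 6.34% and 18.1% were called lower and between 4.83% and 10.5% higher. Among adjacent broad sites at most 10 kb apart with both called, 10 pairs were both higher, 6 both lower and none opposite. Between 50 and 200 kb apart, 97 pairs were both higher, 27 both lower and 10 opposite. The widest contrast among these was chosen after its values were seen: chr6:108486501-108487372 fell by 0.66, and chr6:108608044-108608943, 121 kb away, was higher by 1.24 on the log2 scale.

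The same subset comparison in Pggt1b-deficient cells gave fewer calls from shallower eTreg libraries. There 470 broad sites were higher in eTreg (18.2%) and 112 lower (4.34%), against a background over all tested sites of 9.12% called, 4.59% higher and 4.52% lower. The called medians were 0.43 and -0.51, and 29 sites reached 2-fold. These were 4.98% of the broad calls, against 65.4% of all called sites. Over all tested sites, 5.96% were called at 2-fold or more. These backgrounds are not matched for level. Between 40 and 80 CPM, 12.1% of broad sites were higher and 5.22% lower, against 9.8% and 8.31% of narrower sites. Between 80 and 160 CPM the shares were 19.2% and 3.91%, against 15.6% and 3.61%. Above 160 CPM they were 33.1% and 2.16%, against 32.3% and 3.23%. With TMM over the broad sites the split was 294 to 274, with loess offsets 304 to 248, and 255 higher and 111 lower were called under all 5 scalings. When all libraries were thinned to the smallest, 462 broad sites were called, 400 higher and 62 lower. Between WT subsets the same thinning gave 493, 379 higher and 114 lower. Without Pggt1b-deficient eTreg replicate 1, 256 broad sites were called in either direction, without cTreg replicate 1 there were 240, and without cTreg replicate 2 there were 384, of 582 in all. The comparison shares no library with the WT one. Of the 835 broad sites higher in WT eTreg cells, 301 (36.0%) were also called higher in Pggt1b-deficient eTreg cells, which is 64.0% of the 470. Of the 222 lower in WT eTreg cells, 63 (28.4%) were called lower, which is 56.3% of the 112, while 3 of the 835 were called lower and 2 of the 222 higher. At the 835 sites the median difference was 0.27 in Pggt1b-deficient cells and 0.36 in WT cells, with the same sign at 735. At the 222 it was -0.22 and -0.40, with the same sign at 185. At the 470 sites it was 0.43 in Pggt1b-deficient and 0.27 in WT cells, and at the 112 it was -0.51 and -0.28. Each list was chosen by its calls in 1 genotype, which favoured the larger median there. Across the 2578 sites the 2 sets of differences correlated at 0.63, given as a description. Over all tested sites, where the standard errors were larger, the correlation was 0.36.

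The largest rise between Pggt1b-deficient subsets was at chr8:41508685-41510024, with 113 and 62.8 CPM in eTreg cells, against 20.9 and 16.8 CPM in cTreg cells. The groups did not overlap, although the eTreg libraries differed from each other, and the log2 fold change was 2.24 ± 0.19 (edgeR adjusted p = 8.73e-11). At chr16:58408173-58409440, the 1267 bp site with the third largest rise, the values were 239 and 200 CPM in Pggt1b-deficient eTreg cells, 249 and 238 CPM in WT eTreg cells, 44.9 and 62.8 CPM in Pggt1b-deficient cTreg cells, and 107 and 100 CPM in WT cTreg cells. The eTreg levels of both genotypes were alike in range while the Pggt1b-deficient cTreg libraries were the lowest, and the subset difference was 2.05 ± 0.11 in Pggt1b-deficient cells (edgeR adjusted p = 4.00e-16) and 1.23 ± 0.09 in WT cells (edgeR adjusted p = 1.95e-13). The largest fall was at chr4:6902613-6903421, with 47.5 and 75.9 CPM in Pggt1b-deficient eTreg cells, against 154 and 138 CPM in cTreg cells (log2 fold change -1.28 ± 0.13; edgeR adjusted p = 9.18e-09). The other rises in the list lay between 1.70 and 2.09 and the other falls between -1.26 and -1.04. Of these rises, the one at chr8:41680187-41681044 missed the threshold without Pggt1b-deficient eTreg replicate 1 (1.63; edgeR adjusted p = 0.0686). The fall at chr5:58109038-58110030, the lowest-count of these at 8.97 and 5.93 CPM in eTreg cells against 17.9 and 15.2 CPM in cTreg cells, lost its call under 4 alternatives, among them without Pggt1b-deficient cTreg replicate 1 (edgeR adjusted p = 0.0974) and without eTreg replicate 2 (edgeR adjusted p = 0.102).

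Few broad sites were called for loss of Pggt1b in cTreg cells, and how they split between higher and lower depended on which libraries entered the fit. With all 8 libraries, in Pggt1b-deficient cTreg cells 30 broad sites were higher (1.16%) and 96 lower (3.72%), against a background of 2.21% called, 0.53% higher and 1.69% lower over all tested sites. The median log2 fold change was 0.37 among the higher and -0.46 among the lower, and all 6 sites that reached 2-fold were lower. They were 4.76% of the broad calls, against 44.1% of all called sites. Over all tested sites, 0.977% were called at 2-fold or more in either direction and 0.82% lower. Levels are not matched in these backgrounds. Between 40 and 80 CPM, 1.11% of broad sites were higher and 4.33% lower, against 2.20% and 3.98% of narrower sites. Between 80 and 160 CPM the shares were 1.34% and 3.72%, against 2.49% and 2.12%. Lower calls outnumbered higher ones under all 5 scalings, from 53 higher and 88 lower with DESeq2 size factors to 41 and 132 with loess offsets, and without the filter on low counts the split was 55 and 77. The lead of lower calls was absent when only the 4 cTreg libraries were fitted, with 156 higher and 148 lower, and without both Pggt1b-deficient eTreg libraries, with 132 higher and 128 lower. The number of calls moved as well. It was 126 over all 8 libraries, 304 from the 4 cTreg libraries alone, 226 or 228 without Pggt1b-deficient eTreg replicate 1 or 2 and 260 without both, and between 32 and 54 when any 1 of the 4 cTreg libraries was left out.

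The deepest fall was at chr8:41680187-41681044. It had 5.94 and 10.8 CPM in Pggt1b-deficient cTreg cells, against 53.2 and 19.6 CPM in WT cTreg cells, and the WT libraries differed from each other. The log2 fold change was -2.15 ± 0.28 (edgeR adjusted p = 4.43e-06) and -1.26 without WT cTreg replicate 1 (edgeR adjusted p = 0.00409). The fall at chr2:109757535-109758503 was steadier, with 8.3 and 14.1 CPM in Pggt1b-deficient cTreg cells, against 34.3 and 34.1 CPM in WT cTreg cells (log2 fold change -1.64 ± 0.16; edgeR adjusted p = 5.92e-09). Smaller falls in the list were chr3:123149964-123150834 at -1.15 and chr8:55162255-55163354 at -1.14, and the first was -0.84 without Pggt1b-deficient cTreg replicate 1 (edgeR adjusted p = 0.209). The second was -0.91 after thinning all libraries to the smallest (edgeR adjusted p = 0.25). At the chr7:50736303 and chr8:79425520 sites named above for their rise in WT eTreg cells, the cTreg difference between genotypes was -1.28 ± 0.22 and -1.18 ± 0.15 (edgeR adjusted p = 0.000477 and 2.23e-06). At the chr7 site it was -0.86 without Pggt1b-deficient cTreg replicate 1 (edgeR adjusted p = 0.14), and after thinning all libraries to the smallest neither passed (edgeR adjusted p = 0.182 and 0.0543). The largest rise was at chr12:35674763-35675566, with 84 and 90.1 CPM in Pggt1b-deficient cTreg cells, against 55.9 and 48.9 CPM in WT cTreg cells (log2 fold change 0.73 ± 0.10; edgeR adjusted p = 2.05e-05, and 0.0531 after thinning). The other rises, at chr3:60304594-60305452 (0.61), chr15:61818258-61819624 (0.49), chr7:16895328-16896311 (0.49) and chr6:106742956-106744274 (0.47), each missed the threshold without Pggt1b-deficient cTreg replicate 1, with edgeR adjusted p-values of 0.0524, 0.18, 0.123 and 0.073. At chr18:42110425-42111409 the level was higher without Pggt1b in all libraries of both subsets, at 184 and 120 CPM in Pggt1b-deficient eTreg cells and 101 and 106 CPM in WT eTreg cells, and at 121 and 128 CPM in Pggt1b-deficient cTreg cells and 77.9 and 73.2 CPM in WT cTreg cells. Its log2 fold change was 0.72 ± 0.10 in cTreg (edgeR adjusted p = 1.54e-05) and 0.57 ± 0.11 in eTreg cells (edgeR adjusted p = 0.000484), but in eTreg cells it was 0.20 without Pggt1b-deficient replicate 1 (edgeR adjusted p = 0.325).

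Loss of Pggt1b in eTreg cells changed 504 broad sites, 244 higher (9.46%) and 260 lower (10.1%), against a background of 11.1% called, 4.66% higher and 6.43% lower. Median log2 fold changes were 0.38 among the higher and -0.49 among the lower, and 26 sites reached 2-fold. These were 5.16% of the broad calls, against 68.5% of all called sites. Over all tested sites, 7.59% were called at 2-fold or more. Neither direction led stably: library totals gave 349 higher and 236 lower, TMM over the broad sites 336 and 251, DESeq2 size factors 284 and 248, and loess offsets 212 and 340, with 203 higher and 236 lower called under all 5. Which direction prevailed also varied with level. Above 160 CPM, 27.3% of broad sites rose without Pggt1b and 1.92% fell, whereas between 20 and 40 CPM 4.52% rose and 16.1% fell. Narrower sites above 160 CPM, of which there were 62, were higher in 51.6% and lower in 1.61%. The background over all tested sites is not matched for level. Between 40 and 80 CPM, 5.56% of broad sites were higher and 13% lower, against 10.0% and 9.93% of narrower sites. Between 80 and 160 CPM the shares were 6.68% and 9.35%, against 16.3% and 3.99%. At matched level, broad sites were thus less often called higher than narrower ones. The Pggt1b-deficient eTreg libraries were also the shallowest, and when all libraries were thinned to the smallest, 330 broad sites were called, 201 higher and 129 lower. Without WT eTreg replicate 2 there were 296.

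The largest rise was at chr18:79454167-79455003, with 147 and 117 CPM in Pggt1b-deficient eTreg cells, against 36.1 and 43.2 CPM in WT eTreg cells. The cTreg libraries lay between these, at 94.5 and 90.3 CPM in Pggt1b-deficient cells and 81.7 and 92.8 CPM in WT cells. The log2 fold change between genotypes was 1.74 ± 0.12 in eTreg (edgeR adjusted p = 1.49e-13) and 0.08 ± 0.10 in cTreg cells (edgeR adjusted p = 0.79). Rises at chr2:150132408-150133268 (1.24), chr1:175362342-175363180 (1.13), chr16:49790730-49791537 (1.10) and chr18:55707746-55709035 (1.09) also had the WT eTreg libraries below all 6 others. At chr10:98579411-98580240 the rise of 1.51 rested in part on 1 library, since the Pggt1b-deficient eTreg libraries had 27.8 and 59.3 CPM, against 14.8 and 14.6 CPM in WT eTreg cells; without replicate 2 it was 0.91 (edgeR adjusted p = 0.00384). The falls were led by the chr7:50736303 site at -2.15 ± 0.22 (edgeR adjusted p = 5.75e-09) and the chr8:79425520 site at -1.71 ± 0.14 (edgeR adjusted p = 6.75e-11), whose values are given above. At chr12:41153867-41154724 the level was 17 and 33.2 CPM in Pggt1b-deficient eTreg cells, against 78.1 and 77.4 CPM in WT eTreg cells (log2 fold change -1.68 ± 0.17; edgeR adjusted p = 5.31e-09). The other falls were chr8:55162255-55163354 at -1.55, chr12:35591534-35592430 at -1.52 and chr8:41680187-41681044 at -1.51, the last of which DESeq2 did not call (adjusted p = 0.104).

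The genotype comparisons in cTreg and eTreg cells share no library. Of the 96 broad sites lower without Pggt1b in cTreg cells, 52 (54.2%) were also called lower in eTreg cells, which is 20% of the 260. Of the 30 higher, 10 (33.3%) were called higher in eTreg cells, which is 4.10% of the 244, and 1 site was called in opposite directions. At the 96 sites the median difference was -0.39 in eTreg and -0.46 in cTreg cells, with the same sign at 87. At the 260 sites it was -0.49 in eTreg and -0.15 in cTreg cells. These lists too were each chosen by their calls in 1 subset, which favoured the larger difference there. Across the 2578 sites the differences correlated at 0.48, given as a description. Over all tested sites, again with larger standard errors, the correlation was 0.22.

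The interaction tests whether the effect of Pggt1b loss differed between subsets, as the difference in eTreg minus that in cTreg cells. It passed at 77 broad sites, 45 above 0 (1.75%) and 32 below (1.24%), against a background of 1.51% called, 0.957% above and 0.555% below. That background is not matched for level. Between 40 and 80 CPM, 1.33% of broad sites were called above 0 and 1.78% below, against 2.94% and 1.39% of narrower sites. Between 80 and 160 CPM the shares were 1.24% and 0.954%, against 2.99% and 0.747%. Of the 77, 11 reached 2-fold, or 14.3% of the broad calls, against 76.0% of all called sites. Over all tested sites, 1.15% were called at 2-fold or more. The scalings gave splits from 79 and 29 with library totals to 51 and 52 with loess offsets, and 44 above and 28 below held in all 5. Without the filter on low counts more values lay below 0 than above, 55 against 32. Without any 1 of the 4 cTreg or the 2 WT eTreg libraries the count lay between 26 and 43, without Pggt1b-deficient eTreg replicate 2 it was 157, and after thinning it was 20. The interaction uses the same libraries as the pairwise comparisons, so their values are given side by side. At the 45 sites the median genotype difference was 0.60 in eTreg and -0.02 in cTreg cells, and the median subset difference was 0.25 in Pggt1b-deficient and -0.25 in WT cells. At the 32 sites the genotype difference was -0.64 in eTreg and 0.09 in cTreg cells, and the subset difference was -0.34 in Pggt1b-deficient and 0.41 in WT cells.

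The largest value was at chr18:79454167-79455003, described above, where the interaction was 1.66 ± 0.15 (edgeR adjusted p = 1.34e-08). Below 0, the site at chr16:96019669-96020588 had 26.9 and 33.2 CPM in Pggt1b-deficient eTreg cells, 88 and 77.9 CPM in WT eTreg cells, 36.1 and 41.7 CPM in Pggt1b-deficient cTreg cells, and 49.2 and 51.9 CPM in WT cTreg cells. The WT eTreg libraries alone were high, and the interaction was -1.10 ± 0.19 (edgeR adjusted p = 0.00104). At chr15:63906846-63907665 the levels were 18.8 and 27.3 CPM in Pggt1b-deficient eTreg cells, 54.6 and 55.5 CPM in WT eTreg cells, 34.7 and 25.4 CPM in Pggt1b-deficient cTreg cells, and 30.7 and 30.3 CPM in WT cTreg cells. Again the WT eTreg libraries alone were high, and the interaction was -1.27 ± 0.23 (edgeR adjusted p = 0.00152, and 0.278 after thinning). The widest site, chr4:94716453-94720554, had 702 and 645 CPM in Pggt1b-deficient eTreg cells, 480 and 470 CPM in WT eTreg cells, 643 and 627 CPM in Pggt1b-deficient cTreg cells, and 552 and 578 CPM in WT cTreg cells. Its WT eTreg libraries were the lowest of the 8, and its interaction was 0.34 ± 0.09 (edgeR adjusted p = 0.0347), a call that ended under 11 of 18 alternatives.

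Other broad sites held 1 level throughout. The 4 with the smallest range of group means were chr12:4599060-4599920, chr12:45369456-45370895, chr16:77013587-77014728 and chrX:163820208-163821046. At chr12:4599060-4599920 the level was 34.1 and 34.4 CPM in Pggt1b-deficient eTreg cells, 35.4 and 32.9 CPM in WT eTreg cells, 32 and 35.9 CPM in Pggt1b-deficient cTreg cells, and 34.5 and 32.9 CPM in WT cTreg cells. The groups overlapped fully there.

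The 5 largest runs of neighbouring broad sites differed in whether they held calls. For Pggt1b loss in eTreg cells, 19.55% of all broad sites and 11.1% of all tested sites were called. In the run of 3 at chr13:114390729-114408999, 2 members were called lower without Pggt1b in eTreg cells. The first, chr13:114390729-114391700, had 48.4 and 57.5 CPM in Pggt1b-deficient eTreg cells, against 70.9 and 72.6 CPM in WT eTreg cells (log2 fold change -0.45 ± 0.14; edgeR adjusted p = 0.0254), a call that ended under 8 of 19 alternatives. The middle site, chr13:114397047-114397919, had 4.48 and 19 CPM in Pggt1b-deficient eTreg cells, against 30.2 and 30 CPM in WT eTreg cells (log2 fold change -1.47 ± 0.28; edgeR adjusted p = 0.000332). The last, chr13:114407227-114408999, had 97.8 and 83 CPM in Pggt1b-deficient eTreg cells, against 74.9 and 79.6 CPM in WT eTreg cells (0.23 ± 0.11; edgeR adjusted p = 0.188). The groups did not overlap at any of the 3, but the Pggt1b-deficient eTreg libraries differed widely from each other at the middle site, whose log2 fold change was -0.68 without replicate 1 (edgeR adjusted p = 0.119). The middle site was also called lower without Pggt1b in cTreg cells, at -0.78 (edgeR adjusted p = 0.0136). That call ended under 6 of 20 alternatives. The last site was called higher in WT eTreg than WT cTreg cells, at 0.28 (edgeR adjusted p = 0.0241), which ended under 7 of 20. The runs of 3 at chr7:13609296-13624001 and chr8:35209172-35218331 held no call in any comparison. In the run of 3 at chr15:27853134-27857216, 1 site was lower in WT eTreg than WT cTreg cells and 1 lower without Pggt1b in eTreg cells. The first of these calls ended under 4 of 20 alternatives and the second under 15 of 19. In the run of 2 at chr17:71198133-71202681 the 2424 bp site rose in WT eTreg cells by 0.31 ± 0.08 (edgeR adjusted p = 0.00144). That call ended under 1 of 20 alternatives, and the rise was 0.28 without WT cTreg replicate 2. The same site was lower without Pggt1b in eTreg cells, at -0.38 (edgeR adjusted p = 0.00422, and 0.0636 after thinning).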

How the data were processed

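ATAC-seq libraries of mouse Treg cells numbered 8, with 2 in each of 4 groups read from the sample titles. The deposited table gives counts per site and library, with whole numbers that the authors had not normalized. The submitters' processing notes name MACS2 2.1.1, bedtools, SAMtools, Picard 2.9.4 and Trimmomatic 0.36, and builds mm9 and NCBIM37. The sources used here do not give the aligner, any shift of read ends for the transposase, the peak threshold, pooling for peak calling, or the unit counted (reads or fragments). Pooled calling would set widths and joins by the deeper libraries.

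From these counts, edgeR 4.0.16 (R 4.3.3) was run with its default filter on low counts, TMM scaling, 1 mean per group and two-sided quasi-likelihood F tests. P-values were adjusted over 75352 sites by the Benjamini-Hochberg method. The standard error is the log2 fold change divided by the square root of F. CPM values were scaled by the TMM factors. The fit was tested on simulated counts.

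Alternatives were other scalings, limma 3.58.1 (voom with group weights), DESeq2 1.42.0, no filter, halved and thinned counts, the compared libraries alone, a replicate block, leaving out libraries, and widths over 600, 1000 and 1500 bp. Sites were named by rule: in each pairwise comparison, the 6 largest called changes in each direction with a mean count of at least 20 and no overlap between groups; the 4 largest interactions in each direction; the 6 widest; the 6 highest in CPM per kb; 3 on each side of the width limit; the 5 largest runs within 10 kb; and the 4 most even sites. The members and these rules were chosen with earlier results of these data known. No sequence or gene is given, since no genome of the build was used here.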

Additional observations from a re-analysis of the deposited data

Results flagged for a closer look

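At 19 of the named broad sites the interaction test of Pggt1b loss, eTreg against cTreg cells, passed (edgeR, adjusted p under 0.05). Over all tested sites 1.51% passed. Some of the 19 were named for this interaction and others for large changes in the same libraries. The choice of sites thus favoured such calls, and their number is no separate evidence. The values are the log2 fold change in eTreg minus that in cTreg cells. Above 0 were chr18:79454167-79455003 at 1.66, chr1:191619069-191620117 at 1.35, chr3:123149964-123150834 at 1.29, chr10:98579411-98580240 at 1.14, chr2:150132408-150133268 at 1.09, chr2:149936722-149937599 at 1.03, chr16:49790730-49791537 at 0.97, chr18:55707746-55709035 at 0.92, chr16:58408173-58409440 at 0.82, chr1:175362342-175363180 at 0.80, chr6:106742956-106744274 at 0.59, chr1:171898973-171899821 at 0.40 and chr4:94716453-94720554 at 0.34. Below 0 were chr12:35591534-35592430 at -1.41, chr15:63906846-63907665 at -1.27, chr12:41153867-41154724 at -1.17, chr16:96019669-96020588 at -1.10, chr18:69128657-69129493 at -0.86 and chr18:39678843-39679675 at -0.83. At chr3:123149964-123150834 the Pggt1b-deficient cTreg libraries were the low ones, with 4.71 and 7.31 CPM, against 15.5 and 10.8 CPM in WT cTreg cells, while the eTreg libraries had 26.5 and 23.7 CPM without Pggt1b, against 25.6 and 20.2 CPM in WT. The value at chr10:98579411-98580240 was 0.54 without Pggt1b-deficient eTreg replicate 2 (edgeR adjusted p = 0.2). No value changed sign under the alternatives. The call held under every alternative at 3 of the 19, chr18:79454167-79455003, chr2:150132408-150133268 and chr16:96019669-96020588, and ended under at least 1 at the other 16. Groups of 2 libraries are too small for a test of single outlying libraries.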

How the results depend on the processing

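Counts of broad sites called were 1057 and 582 for eTreg against cTreg cells (WT and Pggt1b-deficient), 126 and 504 for Pggt1b loss (cTreg and eTreg), and 77 for the interaction. Leaving out 1 library gave 552 to 1205, 240 to 633, 32 to 228, 296 to 500 and 26 to 157, in that order. Thinning all libraries to the smallest gave 493 for WT and 462 for Pggt1b-deficient subsets. It gave 16 and 330 for Pggt1b loss in cTreg and eTreg cells, and 20 for the interaction. For Pggt1b loss in cTreg cells, 304 were called from the compared libraries alone, 260 without both Pggt1b-deficient eTreg libraries, 356 with limma-voom and group weights, and 246 with halved counts. For Pggt1b-deficient subsets, limma-voom gave 367. The cause of these shifts was not tested. DESeq2, the filter and the scalings kept every count within 1.5 times, but not every split: without the filter the interaction had 32 values above 0 and 55 below, and with DESeq2's Wald test Pggt1b loss in cTreg cells had 39 higher and 59 lower.

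Width limits of over 600, 1000 and 1500 bp left 1949, 552 and 107 calls for WT subsets, 981, 332 and 71 for Pggt1b-deficient subsets, 253, 69 and 14 for Pggt1b loss in cTreg cells, 959, 264 and 65 in eTreg cells, and 150, 33 and 6 for the interaction, since each limit changes how many sites count. The share of counts became 41.5%, 18.05% and 5.36% in Pggt1b-deficient eTreg, 40.3%, 17.3% and 5.03% in WT eTreg, 39.1%, 16.7% and 5.04% in Pggt1b-deficient cTreg, and 39.0%, 16.7% and 4.99% in WT cTreg cells. Above 1500 bp the order of the subsets was lost in WT cells. There the eTreg libraries (5.09% and 4.98%) overlapped with the cTreg libraries (4.92% and 5.06%).

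Deviations from group means correlated between -0.016 and 0.057 across same-numbered libraries, which gave no sign of pairing by replicate number. With 2 libraries per group this cannot show whether samples shared hosts or batches. With the replicate block the counts were 1010, 531, 112, 468 and 64. Of the 56 calls in the ranked lists of largest changes, 18 ended under at least 1 alternative and none changed direction; interactions at named sites are given above. The Pggt1b-deficient eTreg libraries had the lowest totals, 2255214 and 1664702 counts.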
